A study of Mus musculus with 2 samples.

Results

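Smooth muscle of the ureter drives urine to the bladder by waves of contraction, and 10 channel and transporter genes that carry or control its calcium signals were followed here, of 32589 genes in the deposited tables. They are Ryr2, Ryr3 and Itpr1, Cacna1c, Cacna2d3 and Cacnb2, Kcnq5 and Kcnma1, Slc24a3, and Ano1. The genes were given by name, and their unique molecular identifiers (UMIs, each marking 1 captured RNA molecule) were summed by cell class, by contractile level within muscle and by library. All 10 reached 20 UMIs in smooth-muscle-like nuclei, and 9 reached 50 CPM there (UMIs of a gene divided by all UMIs of the class and scaled to a common total); Ryr2 did not.

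In smooth muscle, calcium enters from outside through voltage-gated channels and is released from the sarcoplasmic reticulum through ryanodine and inositol trisphosphate receptors. Released calcium opens potassium channels, which calm the membrane, and chloride channels, which excite it. Exchangers and pumps then take calcium out of the cytoplasm. In the ureter these currents shape the long action potential on which each peristaltic wave rides.

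Nuclei came from whole ureters of newborn mice (postnatal day 0), pooled by genotype before 1 library per pool was made in microwells. The DNp63cKO pool held 14 mice of genotype Pax2-cre/+;DNp63fl/fl;R26mTmG/+, in which cre deletes the ΔN isoform of p63 and R26mTmG reports cre activity. The control pool held 13 mice, whose genotype is given only as wt, so cre and reporter may differ between the pools as well. Pax2 is active in the nephric duct, the source of the ureter epithelium, while ureter muscle forms from the mesenchyme around it. With 1 library per genotype there is no replicate and no test: every difference lies between 2 libraries, and all intervals cover counting error only.

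The libraries held 5528 (DNp63cKO) and 9062 (control) nuclei with 9859451 and 16063644 UMIs, medians of 1298 and 1124.5 per nucleus. They shared 58 cell barcodes. After filtering, 5172 and 8373 nuclei fell into 17 clusters, of which clusters 3, 10 and 11 were smooth-muscle-like, with 14 of 15 smooth muscle markers at 50 CPM or more in each. They held 1461 DNp63cKO and 1872 control nuclei. Trp63, the targeted gene, had a urothelial level of 140 (DNp63cKO) and 198 CPM (control), and a level of 27.0 and 68.5 CPM in smooth-muscle-like nuclei. Its counts join all isoforms and exons, so they do not check the deletion. The level of uroplakin RNA, made by the epithelium, in smooth-muscle-like nuclei was 37.0% (DNp63cKO) and 24.0% (control) of its level in the whole library, a measure of free RNA from other cells.

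All 10 genes are long, from 163.4 kb (Ano1) to 816.9 kb (Cacna2d3), where the median of genes with 20 or more UMIs in muscle was 25.8 kb. In mm10 the receptors lie on chromosome 13 (Ryr2, 11553102 to 12106945), chromosome 2 (Ryr3, 112631355 to 113217096) and chromosome 6 (Itpr1, 108213096 to 108551109). Cacna1c lies on chromosome 6 (118587240 to 119196418), Cacna2d3 on chromosome 14 (28904943 to 29721864) and Cacnb2 on chromosome 2 (14603088 to 14987908). Kcnq5 is on chromosome 1 (21398403 to 21961942), Kcnma1 on chromosome 14 (23289431 to 24014491), Slc24a3 on chromosome 2 (145167754 to 145642166) and Ano1 on chromosome 7 (144588549 to 144751974). Ryr3 overlaps Aven, Cacna1c overlaps Dcp1b and Cacnb2 overlaps Gm10848, each with 20 or more UMIs in muscle, so reads could be shared between them. Exons fill 0.962% (Slc24a3) to 5.42% (Itpr1) of the genes. Whether introns were counted is not given in the sources used here.

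Promoters are shown for 3 genes whose levels followed each other closely over cell clusters, Slc24a3, Cacnb2 and Cacna2d3, and for Ano1, whose level followed none of them. Each line holds 250 bases before to 50 bases after a RefSeq start site, on the gene's strand (GRCm38.p6), and capitals mark GGGCGG on either strand. Where a gene has several listed starts, the first one along the gene is printed.
Slc24a3 (chr2:145167525-145167824, plus strand): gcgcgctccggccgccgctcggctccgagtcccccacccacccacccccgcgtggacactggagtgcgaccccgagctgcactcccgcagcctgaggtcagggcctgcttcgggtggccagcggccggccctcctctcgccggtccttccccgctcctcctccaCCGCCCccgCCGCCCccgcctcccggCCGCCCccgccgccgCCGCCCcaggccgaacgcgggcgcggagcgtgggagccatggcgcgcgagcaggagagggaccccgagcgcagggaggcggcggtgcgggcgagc
Cacnb2 (chr2:14604056-14604355, plus strand): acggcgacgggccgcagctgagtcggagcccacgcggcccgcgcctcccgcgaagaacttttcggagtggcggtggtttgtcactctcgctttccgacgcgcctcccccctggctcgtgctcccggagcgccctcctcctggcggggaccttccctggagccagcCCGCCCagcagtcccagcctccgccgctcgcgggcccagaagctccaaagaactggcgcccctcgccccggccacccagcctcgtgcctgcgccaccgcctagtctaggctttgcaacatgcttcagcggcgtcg
Cacna2d3 (chr14:29721815-29722114, minus strand): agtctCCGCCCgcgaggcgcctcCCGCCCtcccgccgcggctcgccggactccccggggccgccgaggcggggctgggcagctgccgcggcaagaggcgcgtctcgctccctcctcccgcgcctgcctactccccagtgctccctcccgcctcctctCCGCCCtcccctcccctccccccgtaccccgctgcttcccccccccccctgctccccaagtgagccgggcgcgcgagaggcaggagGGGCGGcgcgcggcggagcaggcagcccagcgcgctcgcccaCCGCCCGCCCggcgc
Ano1 (chr7:144738524-144738823, minus strand): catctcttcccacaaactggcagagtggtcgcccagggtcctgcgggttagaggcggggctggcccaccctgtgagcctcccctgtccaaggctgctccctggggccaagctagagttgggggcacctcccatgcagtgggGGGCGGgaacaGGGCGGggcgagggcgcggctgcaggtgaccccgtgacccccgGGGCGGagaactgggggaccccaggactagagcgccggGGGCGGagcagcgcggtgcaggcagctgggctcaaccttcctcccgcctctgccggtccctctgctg
These windows held 4, 1, 6 and 4 matches to GGGCGG, overlapping matches included, which occurs in 35.9% of 32544 promoters of the same length. They held 43, 35, 41 and 18 CpG pairs, where the median promoter held 7. In all 13 windows listed for 8 of the genes, no exact match to TATAAA, a CArG box or a MEF2 box was found on either strand. Exact matches occur in 13.6%, 1.64% and 0.559% of promoters. The windows of Acta2 and Cnn1, which encode contractile proteins, held no exact match either. Sequences close to a motif were not counted, such as ccctatatgg in the Acta2 window. Absence of such elements is therefore not read from these counts. The table held no start for Ryr3 or Itpr1.

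Across cell classes the 10 genes fell into unlike groups. Ryr3, Cacna2d3, Slc24a3 and Kcnma1 were higher in smooth-muscle-like nuclei than in pericyte-, fibroblast-, endothelium- and urothelium-like nuclei of both libraries. For Kcnma1 this holds for whole classes only, as urothelium-like cluster 2 was near or above the muscle level. Cacnb2 was highest in muscle in DNp63cKO and in pericyte-like nuclei in control, and Kcnq5 was at one level in those 2 classes, with overlapping intervals in both libraries. Among these classes Cacna1c was high in muscle and pericytes, Itpr1 was spread over all, and Ryr2 was low in every one. Ano1 was highest in pericytes by whole class only, as urothelium-like clusters 1 and 9 were near the pericyte level. The plot of levels by class shows each value with its interval.

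**Figure D1:**
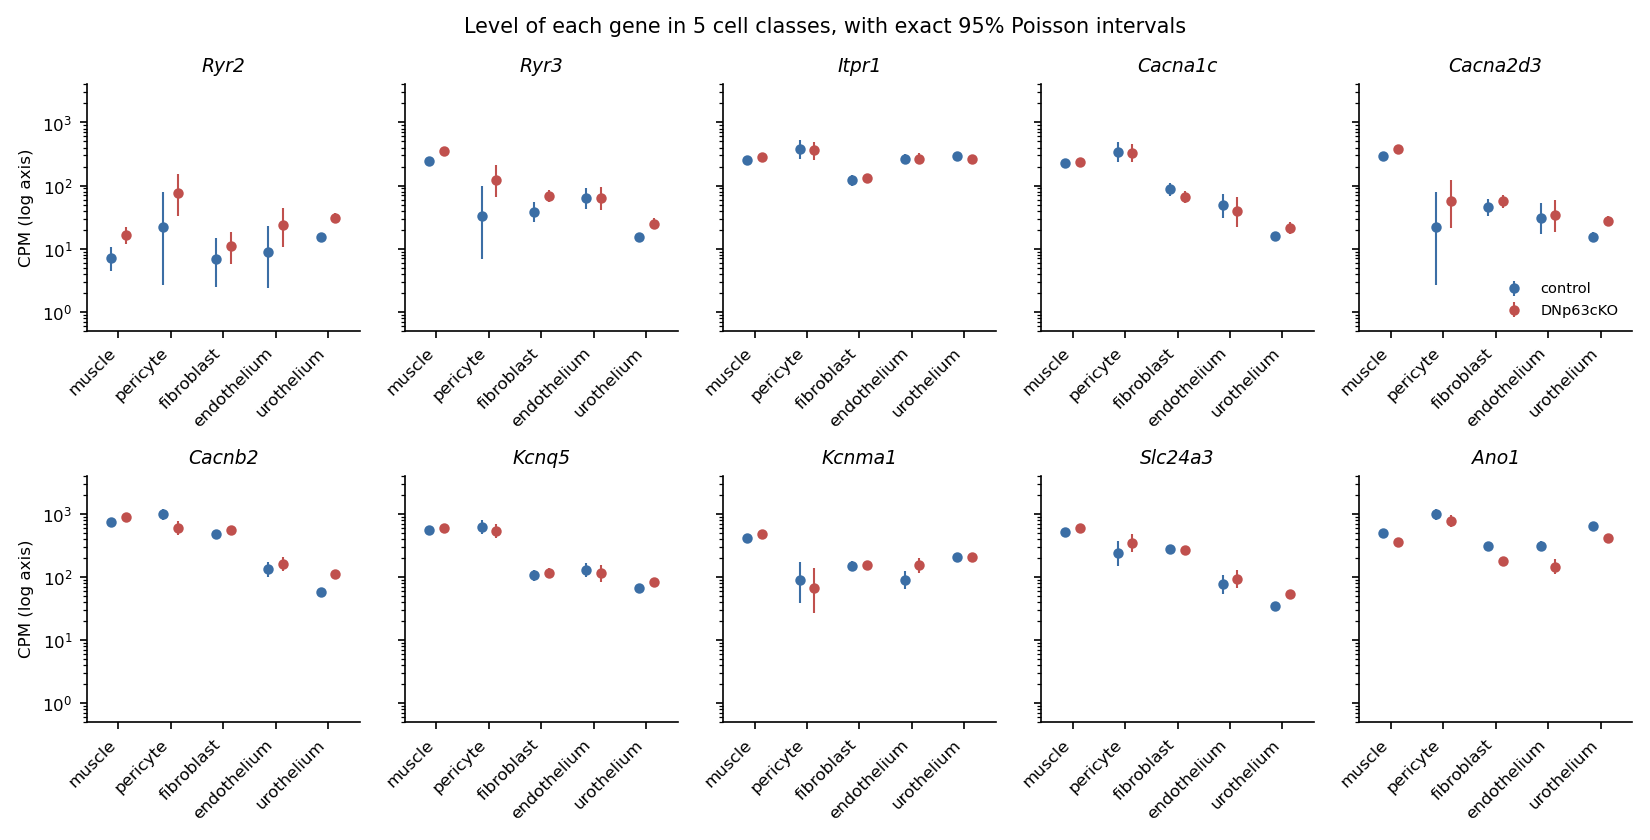
CPM (log axis) of each gene in 5 cell classes, control in blue and DNp63cKO in red, with exact 95% Poisson intervals as bars. Ryr3, Cacna2d3 and Slc24a3 stand highest in muscle and lowest in urothelium, while Itpr1 and Ano1 stand near or above their muscle level in urothelium.

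The release channels differed most. Ryr3, the ryanodine receptor of smooth muscle and brain, stood at 347 CPM in DNp63cKO muscle (978 UMIs) and 249 CPM in control muscle (815 UMIs). Fibroblast-like nuclei had 68.9 and 38.8 CPM, and urothelium-like nuclei 25.0 and 15.3 CPM. In both libraries muscle was thus well above either class. Ryr2, the ryanodine receptor best known from heart, was at 16.3 CPM (46 UMIs) and 7.03 CPM (23 UMIs) in muscle, below its 31.1 and 15.2 CPM in urothelium-like nuclei. A UMI of Ryr2 was seen in 1.66% of DNp63cKO and 0.518% of control muscle nuclei thinned to 700 UMIs, no more than the 1.97% and 0.661% of urothelium-like nuclei, so expression in muscle is not read from it. Taking off the estimated free RNA would leave 12.2 and 5.01 CPM of Ryr2 in muscle. The highest Ryr2 level of any class was in the neuron-like nuclei, 116 and 88.1 CPM, on 7 and 3 UMIs. Itpr1, which encodes the inositol trisphosphate receptor that answers hormones and transmitters, stood at 287 and 251 CPM in muscle, 260 and 293 CPM in urothelium and 268 and 269 CPM in endothelium. It was lower in fibroblasts, at 130 and 121 CPM.

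The 3 subunits of voltage-gated calcium channels also had separate patterns. Cacna1c, the pore of the L-type channel that starts contraction, stood at 233 and 224 CPM in muscle (DNp63cKO, then control, here and below). Pericyte-like nuclei, the contractile cells of small vessels, had 334 and 343 CPM on 35 and 31 UMIs, with intervals of 233 to 464 and 233 to 487 CPM. These overlap the muscle intervals of 216 to 252 and 208 to 241 CPM. The small neuron-like class had 249 and 441 CPM of Cacna1c, on 15 UMIs in each library. Its control interval, 247 to 727 CPM, lay above that of muscle. Cacna2d3, an auxiliary subunit that helps bring channels to the surface, was at 383 and 294 CPM in muscle and at 15.5 to 57.2 CPM in the other 4 classes. Cacnb2, the cytoplasmic subunit that supports the pore, was at 899 and 749 CPM in muscle, but also at 557 and 479 CPM in fibroblasts and 601 and 985 CPM in pericytes.

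Of the potassium channels, Kcnq5, a slowly opening voltage-gated channel, was at 597 and 567 CPM in muscle and 544 and 631 CPM in pericytes. In fibroblasts it was at 117 and 107 CPM and in urothelium at 84.6 and 66.3 CPM. Kcnq5 was not confined to contractile classes. The small glia-like class had 473 and 686 CPM and the neuron-like class 432 and 676 CPM, on 22 to 26 UMIs. Kcnma1, the large-conductance channel opened by calcium and voltage, was at 485 and 420 CPM in muscle and at 205 CPM in the urothelium of each library. Within urothelium, cluster 2 (176 and 676 nuclei) stood at 455 and 554 CPM. Kcnma1 was at 437 and 528 CPM in nephron-like, 233 and 617 CPM in neuron-like and 473 and 165 CPM in glia-like nuclei, all small classes. Pericytes had only 66.8 and 88.5 CPM of Kcnma1, on 7 and 8 UMIs, so the 2 potassium channels parted between the contractile classes.

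Slc24a3, an exchanger that swaps sodium for calcium and potassium, was at 597 and 515 CPM in muscle and 267 and 281 CPM in fibroblasts. Ano1, a chloride channel opened by calcium and a known marker of pacemaker cells in the gut, was at 366 and 508 CPM in muscle. Urothelium had 415 and 635 CPM of Ano1, and pericytes 773 and 985 CPM. Within urothelium, cluster 1 stood at 769 and 968 CPM and cluster 9 at 775 and 1065 CPM, near the pericyte level. Markers of interstitial cells of Cajal, those pacemaker cells, summed to 25.6 and 26.3 CPM in muscle over a list of 5 genes, none of which reached 50 CPM.

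Per 100 kb of gene, CPM in muscle was highest for Cacnb2 (234 and 195) and Ano1 (224 and 311). Whether introns were counted is not given, so this rescaling is not a measure of abundance. Slc24a3 (126 and 109) and Kcnq5 (106 and 101) followed, then Itpr1 (85.0 and 74.2), Kcnma1 (66.8 and 58.0) and Ryr3 (59.3 and 42.5). Cacna2d3 (46.8 and 36.0) and Cacna1c (38.3 and 36.8) were close to each other, and in control their intervals per gene overlap once scaled. Ryr2 was last, at 2.95 and 1.27 CPM per 100 kb.

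Against fibroblast-like nuclei, the other main stromal class, 9 of 10 genes were at least 1.5-fold higher in muscle in each library, where 15.6% of 12994 genes in DNp63cKO and 18.3% of 12837 in control passed the same fold. A gene counts as measured with 20 or more UMIs in both groups together, and log2 ratios are of CPM + 5. The median log2 ratio of the 10 was 1.38 in DNp63cKO and 1.17 in control, beside -0.03 and -0.02 for all measured genes. Cacna2d3 (2.66 and 2.56), Ryr3 (2.25 and 2.54) and Kcnq5 (2.31 and 2.35) stood farthest apart from fibroblasts. Cacnb2 was nearest to the 1.5-fold line among those past it, at 0.69 and 0.64. Ryr2 was the exception, at 0.42 and 0.02.

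Against urothelium-like nuclei 7 genes were at least 1.5-fold higher in each library, where 19.9% of 14028 (DNp63cKO) and 20.3% of 14863 (control) genes were. Cacna2d3, the farthest apart in both libraries, had a log2 ratio of 3.56 and 3.87. Itpr1 (0.14 and -0.22) and Ano1 (-0.18 and -0.32) did not pass in either direction, and Ryr2 was lower in muscle (-0.76 and -0.74). Of the 10 genes, 7 were among the variable genes used for clustering, so they helped to draw the classes. When the channel lists were left out of clustering, the median against fibroblasts was 1.31 and 1.03, with 9 and 8 genes past 1.5-fold; Cacnb2 was then at 0.53 in control. In cluster 3 alone 5 genes passed in each library, and Cacnb2 was below its fibroblast level, at -0.33 and -0.35; with cluster 11 left out it was also below, at -0.19 and -0.08.

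Muscle nuclei themselves were not alike. Clusters 3, 10 and 11 held 436, 484 and 541 DNp63cKO nuclei and 716, 697 and 459 control nuclei. Cluster 3 was led by Acta2 and Myl9, contractile genes, together with mitochondrial and haemoglobin transcripts. Its mitochondrial share was 2.81% and 2.99%, against 0.39% to 0.71% in the other 2 clusters, and a list of 6 erythroid genes summed to 2382 and 1805 CPM there, against 188 to 397 CPM. Cluster 11 was led by Cacna2d3, Ryr3 and Slc24a3 among others, so the high levels of these genes there define it and are given as a description.

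**Figure D2:**
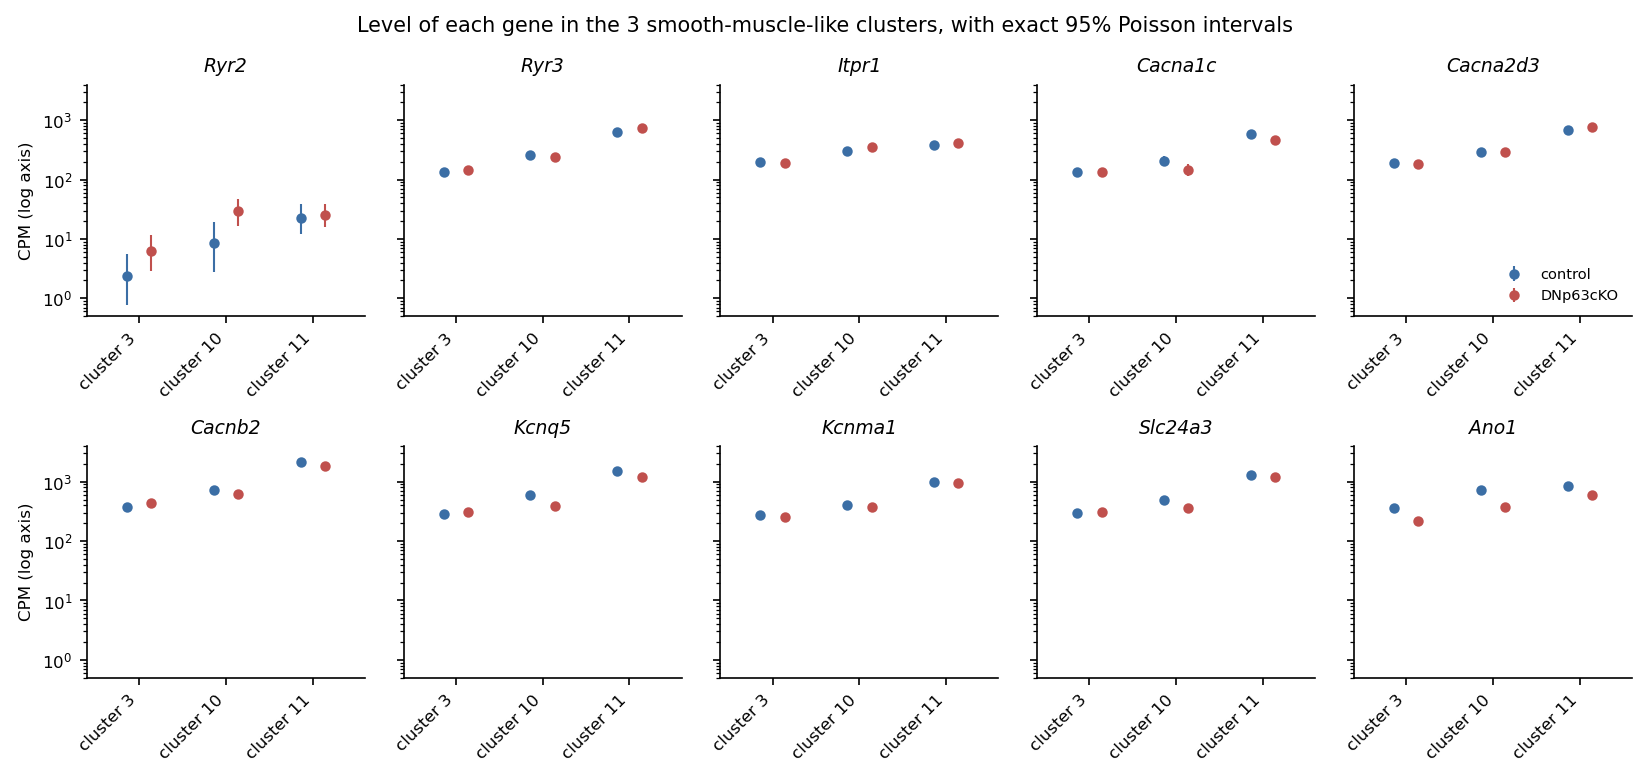
CPM (log axis) of each gene in the smooth-muscle-like clusters 3, 10 and 11, control in blue and DNp63cKO in red, with exact 95% Poisson intervals. All 10 genes are lowest in cluster 3 in both libraries, and all but Ryr2 in DNp63cKO are highest in cluster 11.

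All 10 genes were lowest in cluster 3 in both libraries. Cacnb2 stood at 441 and 374 CPM in cluster 3, 621 and 728 CPM in cluster 10 and 1837 and 2141 CPM in cluster 11. Slc24a3 was at 313 and 299 CPM, 362 and 498 CPM, and 1218 and 1322 CPM. Ryr3 went from 146 and 137 CPM in cluster 3 to 752 and 645 CPM in cluster 11, the widest step of the well-covered genes in DNp63cKO. Itpr1 had the narrowest, from 188 and 201 CPM to 417 and 381 CPM. Ano1 stood at 217 and 356 CPM, 379 and 720 CPM, and 607 and 845 CPM. Between cluster 3 and cluster 10 the intervals of Cacna1c, Kcnq5 and Slc24a3 overlapped in DNp63cKO and that of Ryr2 in control. Between cluster 10 and cluster 11 the intervals of Itpr1 and of Ryr2 overlapped in both libraries.

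The order of the clusters by channel genes was not their order by contractile genes. The contractile list summed to 38888 and 36445 CPM in cluster 3, 16322 and 21167 CPM in cluster 10 and 22570 and 25268 CPM in cluster 11. Genes over 100 kb long, the length class of all 10, gave 14.4% and 15.0% of UMIs in cluster 3 and 29.0% and 29.6% in cluster 11. The part of gene length, mitochondrial share and haemoglobin RNA in these differences was not tested.

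When the channel lists were left out of clustering, 37.9% of these muscle nuclei fell in a group again led by Acta2 with haemoglobin genes, 33.9% in one again led by Cacna2d3, Cpa6 and Ryr3, and 24.2% in a group led by nephron genes that was given no name. Cacnb2 stood at 437 and 386 CPM in the Acta2-led group, 1841 and 1836 CPM in the Cacna2d3-led one and 734 and 949 CPM in the unnamed one. Ryr3 was at 144 and 137 CPM, 809 and 568 CPM, and 204 and 301 CPM. The separation of channel-high and channel-low nuclei was thus also found in groups drawn without these genes. The contractile list summed to 11522.5 and 16093.1 CPM in the unnamed group. That group did not count as muscle in any comparison made with this clustering.

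Seen nucleus by nucleus, after thinning to 700 UMIs, 73.2% and 78.1% of cluster 11 nuclei showed 3 or more of the 10 genes, against 18.1% and 17.4% in cluster 3 and 6.79% and 4.95% in fibroblasts. Shallower nuclei were left out, 255 of 1461 in DNp63cKO and 521 of 1872 in control muscle. Cacnb2 was the gene seen most often, in 42.8% (95% Clopper-Pearson interval 40.0 to 45.6%) and 36.6% (34.0 to 39.2%) of muscle nuclei and in 7.15% and 3.87% of urothelium-like nuclei. Without thinning these shares were 59.9% and 49.9% of muscle nuclei at median depths of 1220 and 971 UMIs, and 16.9% and 8.78% of urothelium-like nuclei at 1464 and 1229 UMIs. Ryr3 was seen in 22.0% and 15.5% of muscle nuclei, against 1.29% and 1.04% of urothelium-like nuclei.

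To follow contractile level, each muscle nucleus was thinned to 500 UMIs and placed by its UMIs of the contractile list (genes of the contractile apparatus such as Acta2, Actg2 and Myh11, none of the 10), 9 or fewer in the low group and 17 or more in the high group, limits set nearest to equal parts of both libraries. The groups are ranges of a score, not cell types: 153 and 179 nuclei lay within 1 UMI of the lower limit and 119 and 157 within 1 UMI of the upper. The low, middle and high groups held 535, 505 and 421 DNp63cKO nuclei and 582, 597 and 693 control nuclei.

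Across these groups the 10 genes did not climb with the contractile genes. Of 10 measured in DNp63cKO and 9 in control, 0 were at least 1.5-fold higher in the high group in either library, where 15.4% of 11154 and 12.2% of 11381 genes were. Lower by that fold were Ryr2 in DNp63cKO (-0.71 on 13 and 19 UMIs, interval -2.06 to 0.17) and Ano1 in control (-0.68, interval -0.85 to -0.51), where 30.4% and 23.9% of genes were. The median log2 ratio of the genes was -0.21 and 0.09, against -0.24 and -0.17 for all genes. Slc24a3 had the largest positive ratio, 0.44 (0.26 to 0.63) and 0.41 (0.23 to 0.61).

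Several genes were highest in the middle group. Ryr3 stood at 290, 449 and 306 CPM in the low, middle and high groups of DNp63cKO, and at 209, 302 and 232 CPM in those of control. Cacna1c went through 202, 303 and 199 CPM in DNp63cKO and 184, 259 and 220 CPM in control. Ano1 was lower at each step up in both libraries, from 430 through 386 to 299 CPM and from 693 through 473 to 432 CPM.

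**Figure D3:**
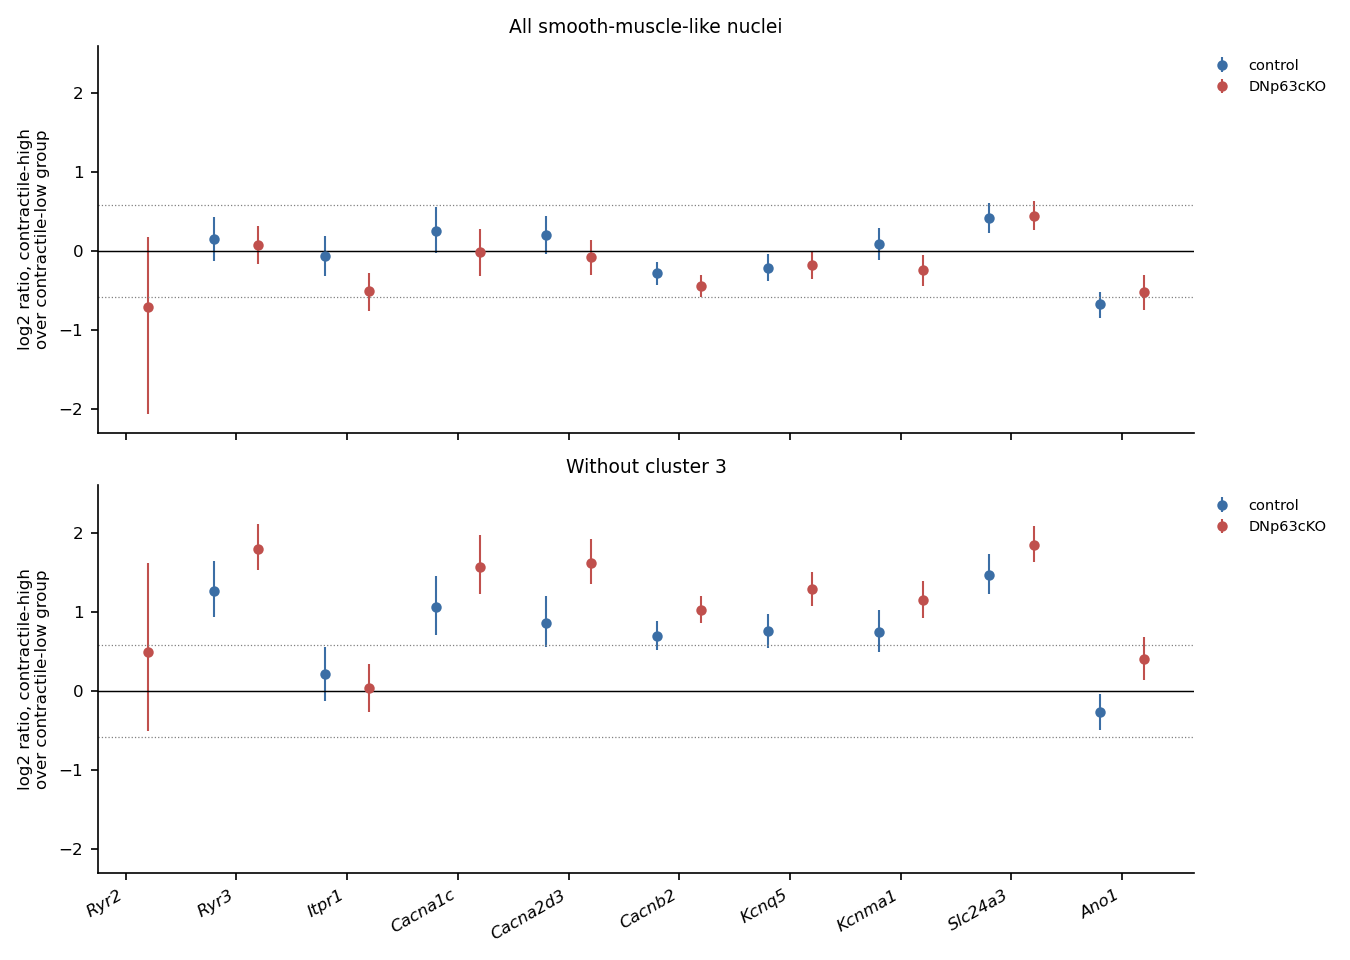
Log2 ratio of the contractile-high over the contractile-low group for each gene, control in blue and DNp63cKO in red, with exact 95% intervals; dotted lines mark 1.5-fold, and Ryr2 in control is left out with under 20 UMIs. The upper panel has all smooth-muscle-like nuclei, with 0 genes 1.5-fold higher, and the lower panel leaves out cluster 3, with 7 genes 1.5-fold higher in each library.

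The high group came mostly from cluster 3, with 247 of 421 nuclei in DNp63cKO and 392 of 693 in control, while the low group drew 51 of 535 and 118 of 582 from it. Over all genes, those longer than 100 kb had a median log2 ratio of -0.54 and -0.46 and those under 10 kb 0.25 and 0.16. Urothelium markers summed to 4897 and 4881 CPM in the high group and to 11415 and 11219 CPM in the low group. The part of these in the result was not tested. With the estimated free RNA subtracted, the median of the genes was -0.91 in DNp63cKO and -0.13 in control. With no doublets removed, 6 genes were past 1.5-fold in either direction in control and 1 in DNp63cKO.

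When groups were cut without cluster 3, a comparison added after the data were seen, 7 genes were at least 1.5-fold higher in the high group of each library. The background was 13% of 9021 genes in DNp63cKO and 14.9% of 8527 in control. They were the same genes in both: Ryr3, Cacna1c, Cacna2d3, Cacnb2, Kcnq5, Kcnma1 and Slc24a3. These are also the 7 whose values helped to draw the clusters, and the cluster left out is the one where all 10 were lowest, so the rise over these groups is a description conditioned on the genes' own levels. Slc24a3 reached 1.85 and 1.47, Ryr3 1.80 and 1.27, Cacna1c 1.57 and 1.06, and Cacna2d3 1.62 and 0.86. Itpr1 stayed near 0, at 0.04 (-0.27 to 0.34) and 0.21 (-0.13 to 0.56), and Ano1 was at 0.41 and -0.26. The median was 1.21 and 0.76, and that of genes over 100 kb was 0.02 and -0.12. Within each cluster taken alone the median was 0.15 and 0.65 in cluster 3, 1.03 and 0.37 in cluster 10, and 0.80 and 0.48 in cluster 11. In the clustering drawn without the channel lists, the haemoglobin-led cluster was likewise left out. The unnamed group was absent as well, as it was not named smooth muscle, so these groups are not like those cut without cluster 3. There 4 of 9 measured genes in DNp63cKO and 2 of 9 in control passed, where 11.3% and 12.8% of all genes did. The medians were 0.43 and 0.32. Slc24a3 (0.98 and 0.91) and Ryr3 (0.75 and 0.72) passed in both libraries there, while Cacnb2 was at 0.098 and -0.0076 and Kcnq5 at 0.41 and 0.078.

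Genes of the same pathway, taken from lists of partners and other channels, were compared between muscle and fibroblasts in the same way. Of all genes, 15.6% in DNp63cKO and 18.3% in control were at least 1.5-fold higher in muscle. Among 16 partners of calcium release found in the tables, 6 of 15 measured in DNp63cKO and 5 of 14 in control were at least 1.5-fold higher in muscle than in fibroblasts, with 2 and 1 lower, where 14.6% and 16.5% of all genes were lower. Jph2, which ties the reticulum to the surface membrane, had a log2 ratio of 2.51 in each library, Casq1, a calcium store protein, 1.68 and 2.27, and Fkbp1a, a binding partner of ryanodine receptors, 1.26 and 1.55. Of 11 measured genes that remove calcium, 5 and 4 were higher and 1 and 1 lower. Atp2a2, the pump that refills the reticulum, was at 1.42 and 1.43 and Atp2b4, a surface membrane pump, at 1.29 and 1.67.

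Other potassium channel genes counted 14 of 27 higher and 6 lower in DNp63cKO, and 12 of 27 higher and 7 lower in control. Higher among all genes were 15.6% and 18.3%, and small counts in the lists below are not told apart from these shares. Kcnn2, a small-conductance channel opened by calcium, was at 2.59 and 2.24 and Abcc9, the regulatory subunit of ATP-sensitive channels, at 1.27 and 1.57, while Kcnt2 was -1.91 in control. Other voltage-gated calcium channel genes were fewer, with 2 of 9 and 1 of 10 higher and 2 and 3 lower. Chloride channels and transporters had 0 of 9 and 0 of 8 higher and 2 and 1 lower, which leaves Ano1 alone among the chloride channels examined past 1.5-fold above fibroblasts. Store-operated, TRP and other cation channels had 6 of 26 and 7 of 23 higher and 9 and 8 lower, with P2rx1, an ATP-gated channel, at 2.49 and 1.57. Of gap junction genes 1 of 5 and 3 of 6 were higher; Gja1 was at 2.20 and 1.45.

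The lists were also counted without cluster 3, which was left out after the data were seen. Among all genes, 13% of 9021 in DNp63cKO and 14.9% of 8527 in control were at least 1.5-fold higher in the high group. With few genes measured per list, small counts are not told apart from these shares. Calcium removal genes had 5 of 8 measured in DNp63cKO and 5 of 9 in control at least 1.5-fold higher in the high group, with Atp2b4 at 1.51 and 1.07 and Slc8a1, the surface sodium-calcium exchanger, at 1.23 and 0.73. Other potassium channels had 7 of 14 and 8 of 13, and other calcium channel subunits 4 of 8 and 2 of 5. Calcium release partners had 2 of 9 in each library, with Jph2 at 2.39 and 1.47. Store-operated, TRP and other cation channels had 3 of 16 and 4 of 14, with P2rx1 at 1.88 and 1.71. Chloride channels had 0 of 6 and 0 of 4, and gap junction genes 1 of 3 in each library. Mcu, the mitochondrial calcium channel, went the other way, at -0.94 and -0.90. Lower by 1.5-fold were 1919 of all 9021 genes in DNp63cKO and 1596 of 8527 in control. In the lists these were 1 and 1 calcium removal genes, 2 and 1 other potassium channels and 0 and 0 other calcium channel subunits. Calcium release partners had 1 and 1 lower, store-operated, TRP and other cation channels 2 and 1, chloride channels 2 and 1, and gap junction genes 1 and 1.

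Over 34 cluster sums (17 clusters in 2 libraries), the level of each gene was compared with 11752 other genes by Pearson's r, as a description, since the points share libraries and depth. Nearest to Slc24a3 were Myocd (0.94), the co-activator of contractile genes, and Pdlim3 (0.94), and nearest to Cacna2d3 were Synpo2 (0.93) and Dpp6 (0.92). Ryr3 was nearest to Sulf1 (0.91) and Synpo2 (0.90), Cacnb2 to Dmd (0.93) and Prkg1 (0.92), Kcnq5 to Dmd (0.91), and Cacna1c to P4htm (0.87) and Unc5c (0.85). Ano1 was nearest to Pard3 (0.81) and Cdh3 (0.75), Itpr1 to Lmo7 (0.72) and Ppargc1a (0.71), Kcnma1 to Epha7 (0.80) and Dock3 (0.70), and Ryr2 to Snhg14 (0.76) and Ints10 (0.74). Among the genes themselves Slc24a3 and Cacnb2 were closest (0.94), while Ano1 lay between -0.24 and 0.27 with the other 9.

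Between the libraries, muscle differed little in these genes. Of the 10, only Ryr2 was past 1.5-fold, at a log2 ratio of DNp63cKO over control of 0.83 on 46 and 23 UMIs, where 3.18% of 13570 genes were higher and 2.95% lower by that fold. Ryr2 was also higher in urothelium-like nuclei (0.84), the class whose share of nuclei with a UMI it did not exceed in muscle. Ryr3 followed at 0.47 (0.34 to 0.61), Cacna2d3 at 0.38 (0.25 to 0.51) and Cacnb2 at 0.26 (0.18 to 0.34). Slc24a3 (0.21), Kcnma1 (0.20) and Itpr1 (0.19) were slightly higher beyond counting error. Intervals of Kcnq5 (0.07, -0.02 to 0.17) and Cacna1c (0.06, -0.10 to 0.21) spanned 0. The median of the 10 was 0.21, against 0.01 for all genes.

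Ano1 was the only one of the 10 lower in DNp63cKO muscle, at -0.47 (-0.59 to -0.36). It was lower within each muscle cluster, at -0.70 in cluster 3, -0.92 in cluster 10 and -0.47 in cluster 11. It was lower as well in urothelium (-0.61), fibroblasts (-0.73) and endothelium (-1.05). In pericytes the value was -0.35, with an interval of -0.80 to 0.10. Free RNA, on the uroplakin measure, was 79.8% of the library level in DNp63cKO and 25.7% in control pericytes. With it subtracted, Ano1 was higher in DNp63cKO pericytes (2431 against 1131 CPM), and the ratio in muscle was -0.39. The subtracted pericyte values rest on 81 and 89 UMIs and have no interval, so the direction there is not settled.

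**Figure D4:**
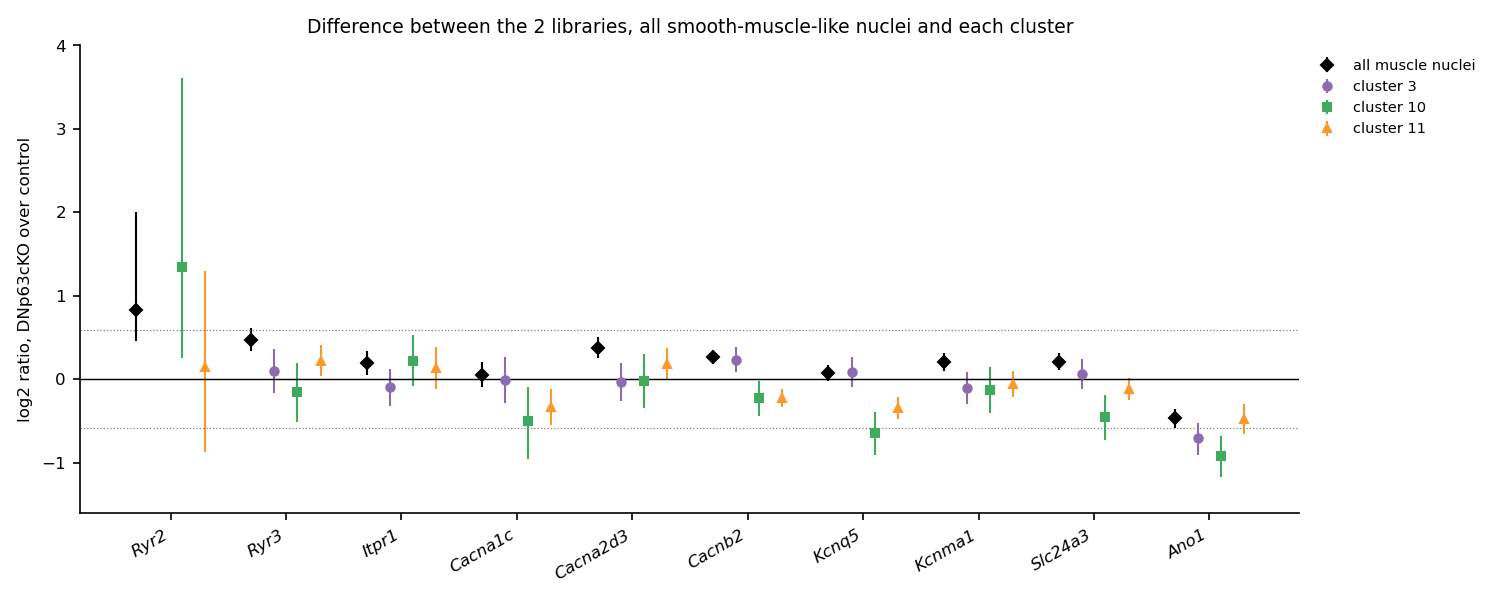
Log2 ratio of DNp63cKO over control for each gene in all smooth-muscle-like nuclei (black diamonds) and in clusters 3, 10 and 11, with exact 95% intervals; dotted lines mark 1.5-fold, and Ryr2 in cluster 3 is left out with under 20 UMIs. Ano1 lies below 0 in all 4 sets. The small excess of Ryr3, Cacna2d3, Kcnma1 and Slc24a3 over all nuclei is smaller, absent or reversed within the clusters, with Slc24a3 at -0.46 in cluster 10.

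The small excess of most genes was not seen alike within clusters. The median log2 ratio of the measured genes, Ano1 included, was -0.01 in cluster 3, -0.19 in cluster 10 and -0.09 in cluster 11, and -0.12 with the 3 clusters weighted equally. Cluster 10 differed between the libraries in other ways: its free RNA measure was 66.3% and 33.8%, its urothelium markers summed to 12787 and 9834 CPM, and its contractile list to 16322 and 21167 CPM. In cluster 11 the free RNA measure was 37.5% and 25.2%, and in cluster 3 it was 23.5% and 21.2%; the part of these in the ratios was not tested. Ryr3 was at 0.09, -0.16 and 0.22 in clusters 3, 10 and 11, and Kcnq5 at 0.08, -0.64 and -0.35. Counting intervals lay above 0 for 1, 1 and 2 genes there and below 0 for 1, 5 and 4 genes. Cluster 11, where the genes are highest, gave 37.0% of DNp63cKO and 24.5% of control muscle nuclei and 30.5% and 17.6% of their UMIs, and cluster 3 gave 51.2% and 64.2% of the UMIs. The pooled ratio therefore joins differences in level with differences in the share of each cluster.

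Values also differed between nuclei sorted by sex-linked transcripts, as the pools hold both sexes in unstated shares. In muscle nuclei with Y-linked and no Xist UMIs (154 and 156 nuclei) the median was 0.73, with Ryr3 at 1.62 (1.18 to 2.14) and Cacnb2 at 1.23 (0.94 to 1.54). Cluster 3 gave 22.7% of these in DNp63cKO and 53.8% in control. In nuclei with Xist and no Y-linked UMIs (701 and 995 nuclei) the median was -0.00, Ryr3 was at 0.27 and Cacnb2 at 0.01, with 27.4% and 28.1% from cluster 3. Detection of either marker depends on depth, and the part of the cluster makeup in this gap was not tested.

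Among the pathway lists, other potassium channels differed most between the libraries, with 5 of 31 higher by 1.5-fold and 3 lower, larger shares than the 3.18% and 2.95% of all genes; 11 genes of that list reached 50 CPM in muscle. Kcnt2, a sodium-activated channel, was at 0.74 and Kcnk3, a leak channel, at -0.53. Calcium release partners had 0 of 15 higher and 1 lower, calcium removal genes 0 of 11 and 0, and other calcium channel subunits 0 of 10 and 0. Chloride channels and transporters had 0 of 9 and 0, with Slc12a2, which loads the cell with chloride, at -0.42. Gja1 was the 1 gap junction gene of 6 past the fold, at 0.60, and store-operated, TRP and other cation channels had 2 of 25 higher and 1 lower. Slc8a1 stood at 1946 and 1434 CPM, a log2 ratio of 0.44.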

How the data were processed

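The deposited values are counts of UMIs per gene and nucleus, 1 matrix per library, not normalized. Per the submitters' processing notes, STARsolo, STAR 2.7.11a, R 4.0.5 and Seurat 4.0.5 were used with the mm10 build; their settings, the gene annotation and the counting of introns were not given in the sources. Gene spans came from GENCODE M21, which held 32445 of 32589 gene IDs.

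Nuclei under 300 genes or above 5% mitochondrial UMIs were dropped, which left most of them (5491 of 5528 DNp63cKO, 8889 of 9062 control). Scrublet's automatic threshold called 0 doublets in either library, so nuclei at or above the score that marks the top 5% were removed, ties included (319 of 5491 and 516 of 8889). Scanpy 1.11.5 clustered both libraries together (2000 variable genes, 30 components, 15 neighbours, resolution 1). Clusters were named from marker lists; the naming rule was settled after a first one had given names that went against leading genes, so shares may differ from the study's. Sums of UMIs per class and library were scaled to CPM, with exact 95% Poisson intervals. Log2 ratios used CPM + 5 in genes with 20 or more UMIs, with conditional binomial intervals made without the added 5; shares had Clopper-Pearson intervals. The ratio code was tested on simulated counts.

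The 10 genes and all lists were chosen with earlier results of these data known. From each other list up to 4 genes per comparison were named, those with the largest ratio among genes at 50 CPM or more in muscle; neighbours were the 2 genes of highest correlation, of which 1 is not reported here. The Cajal-cell, erythroid and other marker lists served only to describe classes.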

Additional observations from a re-analysis of the deposited data

Results flagged for a closer look

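With 1 library per genotype none of the differences here was tested; each pair has opposite signs with both counting intervals away from 0.

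Cacnb2 differed in sign between cell classes for DNp63cKO over control. Its log2 ratio was -0.71 in pericyte-like nuclei, on 63 and 89 UMIs, and 0.26 in smooth-muscle-like, 0.21 in fibroblast-like and 0.92 in urothelium-like nuclei. In the pericyte-like nuclei the free RNA measure was 79.8% in DNp63cKO and 25.7% in control, and urothelium markers summed to 14253 and 7799 CPM. With free RNA subtracted, Cacnb2 there was at 1318 and 1241 CPM, no longer opposite in sign. The subtraction took 335 of 601 CPM in DNp63cKO and has no interval, so the sign in pericyte-like nuclei is not settled. Within muscle it was 0.23 in cluster 3, -0.23 in cluster 10 and -0.22 in cluster 11; the free RNA measure of cluster 10 was 66.3% and 33.8%.

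Itpr1 was higher in DNp63cKO muscle (0.19) and lower in DNp63cKO urothelium (-0.17).

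Ano1 went opposite ways with contractile level once cluster 3 was left out, with a high over low ratio of 0.41 in DNp63cKO and -0.26 in control.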

How the results depend on the processing

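Of 178 alternative values for the medians and counts, 104 stayed within tolerance (for a median, the median of the genes' counting bounds; for a count, 1.5 times) and 74 did not; 11 of 890 single-gene ratios changed sign after passing 1.5-fold. The cause was not tested unless the alternative itself shows it (fewer nuclei or genes). Values are in the order DNp63cKO, control, and counts are genes past 1.5-fold in either direction. Alternatives by Xist nuclei, by equal weights, by the haemoglobin-led cluster and, other than for DNp63cKO over control, by cluster were chosen after seeing the data. No paired analysis was possible because each genotype has 1 library.

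For DNp63cKO over control in muscle the median was 0.21 with 1 gene past the fold. It was 0.345 with 2 genes after free RNA was subtracted, 0.73 with 6 in nuclei with Y-linked and no Xist UMIs, and -0.0039 in nuclei with Xist only. It was -0.12 with 2 genes with clusters weighted equally, 0.035 without cluster 3, and -0.036 with 2 genes without cluster 11. It was -0.0071 in cluster 3 alone, -0.19 with 3 genes in cluster 10 alone and -0.087 with 0 in cluster 11 alone. The count was 2 without cluster 10 and with channel genes left out of clustering, and 0 with no doublets removed. Ano1 was below 0 in all 19 alternatives, from -0.92 (cluster 10 alone) to -0.03 (nuclei with Y-linked UMIs).

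For muscle over fibroblasts the medians were 1.38 and 1.17 with 9 and 9 genes. They were 2.596 and 1.68 after free RNA was subtracted, and 1.77 in DNp63cKO as a mean over nuclei. They were 1.96 and 1.88 without cluster 3, 0.82 and 0.86 without cluster 11, 0.595 and 0.71 with 5 and 5 genes in cluster 3 alone, 2.365 and 2.66 in cluster 11 alone, and 1.17 in DNp63cKO in cluster 10 alone. Cacnb2 turned to -0.33 and -0.35 in cluster 3 alone and to -0.19 and -0.082 without cluster 11.

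The contractile groups depended most on the processing, with medians of -0.21 and 0.09 and 1 and 1 genes. Removing the top 10% by doublet score gave -0.50 with 3 genes and -0.16, and removing none gave 0.36 with 6 genes in control. Leaving channel genes out of clustering gave -0.53 with 3 genes, and 0 genes in control. Free RNA subtraction gave -0.91 with 9 genes and -0.13 with 2. The mean over nuclei gave 0.15 with 2 genes, and 2 genes in control. Leaving the 2 most abundant contractile genes out of the score gave 0.19 and 0.38, with 3 and 3 genes. Resolution 0.5 and no minimum of UMIs each gave 2 genes in control, and equal upper and lower parts gave 0 in DNp63cKO. Without cluster 3 the medians were 1.215 and 0.76 with 7 and 7 genes. Without the haemoglobin-led and unnamed groups of the clustering without channel genes, Ryr2 turned to 1.18 in DNp63cKO and Ano1 to 0.026 in control. The medians there were 0.43 and 0.32 with 4 and 2 genes. They were 0.15 and 0.65 with 0 and 6 genes in cluster 3 alone, 1.03 and 0.37 with 6 and 4 in cluster 10 alone, and 0.80 and 0.48 with 7 and 4 in cluster 11 alone. Ryr2 in DNp63cKO turned to 0.31 with channel genes left out of clustering, 0.49 without cluster 3, 0.25 in cluster 10 alone and 0.79 in cluster 11 alone, and Ano1 in control to 0.030 in cluster 11 alone.

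Depth limits Ryr2 most, with 46 and 23 UMIs in muscle, and every gene in pericyte-like nuclei, of which there were 82 and 75.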
